A study of Caenorhabditis elegans with 2 samples.

Results

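A list of 46 genes that build, run or specify the nervous system of the nematode Caenorhabditis elegans was examined for binding of APTF-2, a transcription factor of the AP-2 family. The list holds 46 of the 19973 protein-coding genes on the 6 nuclear chromosomes, and its members were taken by name, with earlier results of these data known. It covers 12 genes of synaptic vesicle release, 6 of dense core vesicles and neuropeptides, 3 of axon transport and outgrowth, 9 of transmitter synthesis and loading, 12 terminal selectors and identity factors, and 4 proneural factors. The group of synaptic vesicle release also takes in the recycling gene ehs-1 and the pan-neuronal marker rgef-1. The assay was ChIP-seq: chromatin is sheared, an antibody pulls down the protein with its DNA, and that DNA is sequenced. All material was of 1 kind: whole young adult worms of 61.5 h from strain RW12304, which carries st12304[aptf-2::TY1::EGFP::3xFLAG] IV, an insertion made by CRISPR that adds a tag to aptf-2 itself. The worms were synchronised by bleaching and starvation as L1 larvae, and the tagged protein was precipitated with an antibody against GFP in 2 biological replicates. The strain is a single edited line, so its 2 replicates do not show how far another insertion would differ. No second condition, no control library and no untagged strain was analysed here.

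Neurons release small transmitters from synaptic vesicles and peptides from dense core vesicles, and they share a common set of genes for both. Which transmitter a neuron makes is set by terminal selectors, transcription factors that switch on the genes of 1 neuron class and keep them on. Proneural factors of the basic helix-loop-helix family act earlier and make cells neural. AP-2 factors bind GC-rich palindromes, and in C. elegans the relative APTF-1 is known for its part in the sleep-inducing neuron RIS, where it is needed for expression of the neuropeptide gene flp-11. APTF-2 itself is known from the embryo, where the epidermis needs it to enclose and elongate the body. Neurons are a small share of the tissue in a whole worm, so a site bound in few neurons and a site bound weakly in many cells cannot be told apart.

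Each gene was read in its promoter window, reaching 1000 bp upstream and 200 bp downstream of every protein-coding start it has. Peaks are given on assembly ce11, and a peak counts for a window when its summit, the point of highest enrichment, lies inside. The authors' conservative list, thresholded by the irreproducible discovery rate (IDR) over both replicates, held 892 peaks. Their ranked list from both replicates held 94866 peaks before any threshold, with a median signal of 26.7. The signal of a peak comes from the authors' caller and its scale is not stated, so it serves only to rank peaks within 1 list. The IDR score runs to 1000, and 830 stands for a global IDR of 0.01. On its own, replicate 1 had 54777 ranked and 350 thresholded peaks, and replicate 2 had 51529 and 403. With peak lists alone the depth of each library is unknown, and the intervals below cover only the counting of genes.

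Among the 46 neuronal genes, 1 had a summit of the conservative list in its promoter window. This gene was ehs-1, which encodes the worm Eps15 protein of synaptic vesicle recycling by endocytosis. The share of neuronal genes was 2.17% (Wilson 95% interval 0.385% to 11.3%), against 628 of 19927 other protein-coding genes, or 3.15% (2.92% to 3.40%). Over all protein-coding genes 629 had such a summit, a background of 3.15%. The interval of the neuronal share contains the background. Chromosome X holds 10 of the 46 genes, against 2731 of all 19973, and 35 of the 629 genes with a conservative summit. With a window of 500 bp upstream and 100 bp downstream the neuronal count was 0, and it was also 0 among the stronger 50% of the conservative peaks. Ranked peaks were far more widespread: 36 neuronal genes (78.3%) had a ranked summit in the window, against a background of 75.1%, or 15000 genes. At an IDR score of 830 or more the ranked list gave 1 neuronal gene, ehs-1, against a background of 3.16%. At the looser score of 540, a global IDR of 0.05, it still gave ehs-1 alone, against a background of 5.3%. The neuronal gene next below that limit was ric-19, with an IDR score of 359.

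Sequences at 4 sites are shown because the results turn on them: the summit of ehs-1, the intronic summit of unc-104 described further on, and the strongest ranked summits of unc-42 and flp-11. Each is read 5′ to 3′ on the plus strand of the RefSeq copy of WBcel235 (ce11) and spans the summit and 100 bp on each side. For unc-42, a gene on the minus strand, the stretch starts 10 bp before the motif, which leaves out most of the untranslated region but not its outermost bases, and the motif itself crosses the annotated start. Capitals in unc-42 mark a match to the AP-2 palindrome GCCNNNGGC, where N is any base. In unc-104 capitals mark an annotated tRNA pseudogene. The windows of ehs-1 and flp-11 held none of the motifs searched and are wholly in lower case.
ehs-1, chrII:5819815-5820015: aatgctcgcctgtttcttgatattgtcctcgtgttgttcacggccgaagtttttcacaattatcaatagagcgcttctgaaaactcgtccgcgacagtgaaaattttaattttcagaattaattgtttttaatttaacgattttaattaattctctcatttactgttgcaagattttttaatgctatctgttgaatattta
unc-104, chrII:7001511-7001711: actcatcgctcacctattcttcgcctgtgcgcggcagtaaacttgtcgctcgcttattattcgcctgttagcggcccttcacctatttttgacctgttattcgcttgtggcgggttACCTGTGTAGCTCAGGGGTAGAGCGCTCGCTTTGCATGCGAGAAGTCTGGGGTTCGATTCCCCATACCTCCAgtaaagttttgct
unc-42, chrV:9769379-9769509: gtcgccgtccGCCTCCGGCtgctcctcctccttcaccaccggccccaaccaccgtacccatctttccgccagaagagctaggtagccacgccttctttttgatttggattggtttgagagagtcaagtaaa
flp-11, chrX:4678808-4679008: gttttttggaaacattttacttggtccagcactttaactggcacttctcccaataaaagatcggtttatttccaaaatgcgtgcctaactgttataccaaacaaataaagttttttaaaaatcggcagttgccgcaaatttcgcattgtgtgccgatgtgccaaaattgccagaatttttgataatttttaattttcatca

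The ehs-1 peak lay at chrII:5819767-5820062, outside the gene and 797 bp upstream of its start (WBGene00001224, chrII:5820712-5823862, plus strand). Its signal was 86.1 with an IDR score of 1000, and its −log10 q value was 1.05. In the replicates' own ranked lists the site had a signal of 46.3 in replicate 1 and 46.6 in replicate 2. The replicates were thus close to each other here, yet neither replicate's thresholded list held the peak. Within the conservative list 666 of the 892 peaks had a higher signal, and over all genes 558 had a higher signal in the window. No other gene's window held the summit, and its printed sequence occurred once in the genome. GC content of this stretch was 31.3%, as the sequence above shows in its long runs of a and t.

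Signal at the remaining neuronal promoters was close to that of promoters in general. Ranked by the highest signal in the window over all 19973 genes, the 46 neuronal genes had a median percentile of 56.1 (quartiles 29.7 and 74.9), against 49.985 for the 19927 other genes. Genes with no ranked summit share percentile 12.4 in this ranking. In the replicates' own lists the neuronal median was 54.8 in replicate 1 and 51.1 in replicate 2. The 36 neuronal genes with a ranked summit ran between signals of 11.4 and 86.1, with quartiles of 28.1 and 44.8 and a median of 35.9. Over all 15000 genes with one, the quartiles were 25.97 and 46.5, the median was 35.3 and the highest value was 949.6. Of the 46 neuronal genes, 26 lay above the median gene, 12 fell in the top 25% and 2, ehs-1 and unc-42, in the top 10%. The 629 genes with a conservative summit had a median signal of 114, and 101 of them lay below ehs-1. In density, the neuronal windows held 1.00 ranked summits per kb, against 0.990 for all promoter windows and 0.946 for the genome. Neuronal genes were long, with a median of 4749 bp against 2027 bp for all genes, and many had several starts, at 28 of the 46. Their windows had a median of 1230.5 bp against 1201 bp for all genes, but a mean of 1781 bp against 1453 bp, and 17 of the 46 were longer than 1500 bp, against 16.2% of all windows. A longer window offers more summits to take the highest from. With the 1201 bp window of the most upstream start alone, equal for every gene, the neuronal median percentile was 54.1.

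**Figure D1:**
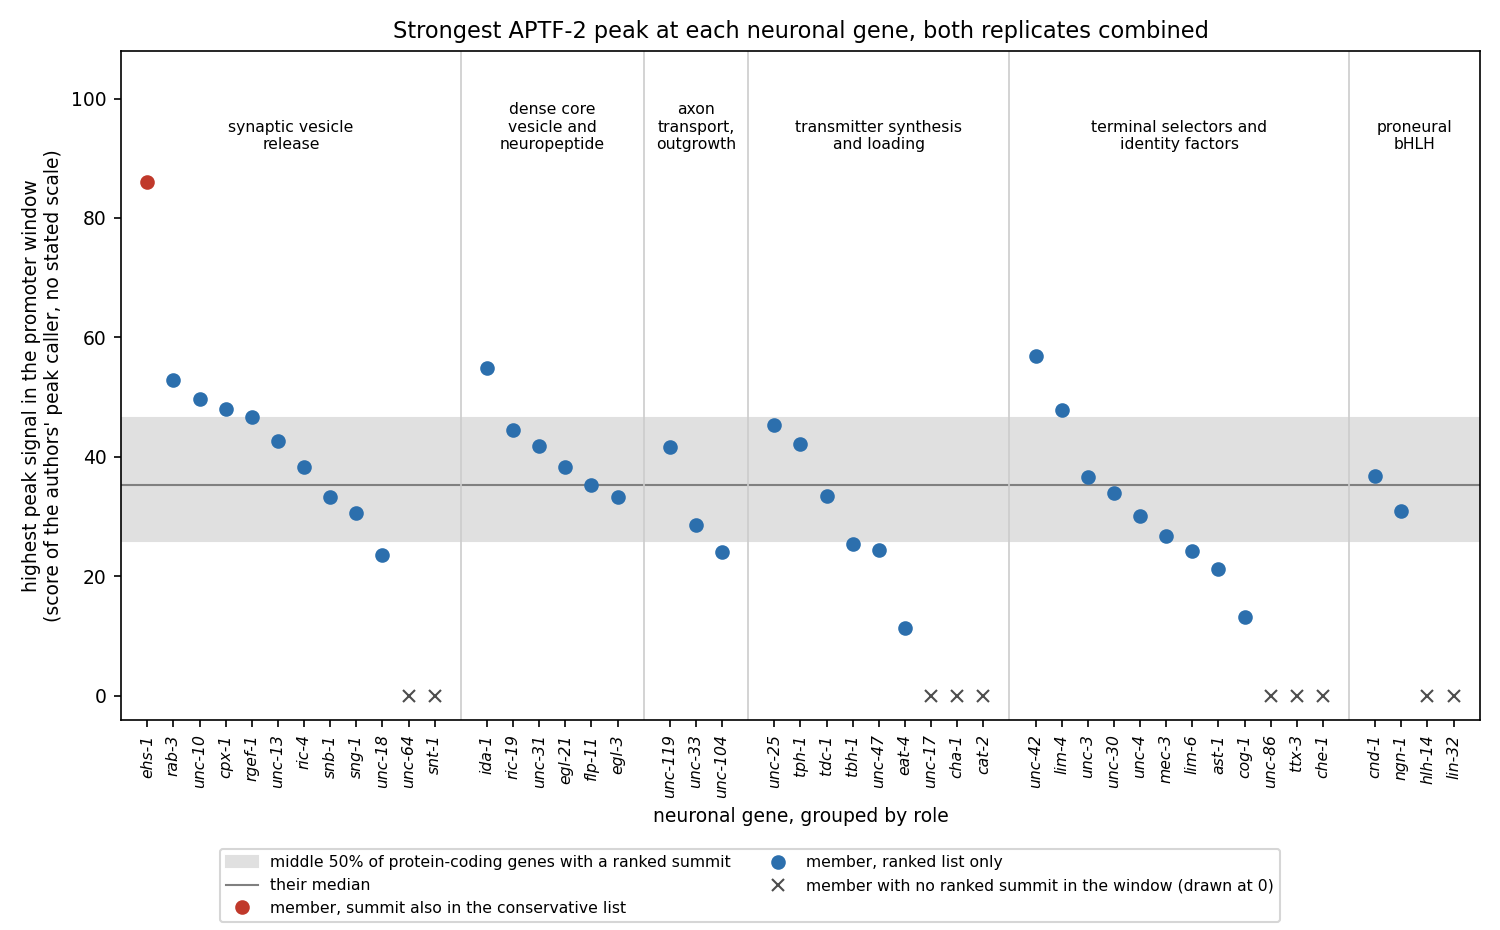
Highest ranked-list signal in the promoter window of each neuronal gene (y axis, in the units of the authors' caller), with genes on the x axis sorted within 6 role groups. The red point is ehs-1 at 86.1, the 10 crosses are genes with no ranked summit, and the grey band with its line gives the middle 50% and median (35.3) of protein-coding genes with a ranked summit.

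**Figure D2:**
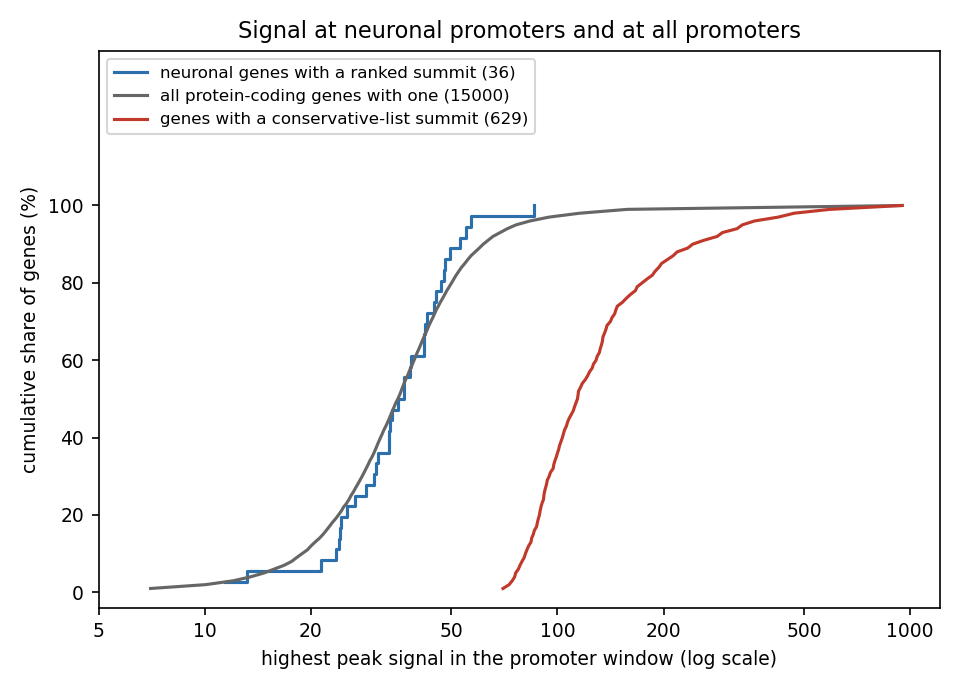
Cumulative share of genes (y axis, percent) against the highest signal in the promoter window (x axis, log scale). The stepped line of the 36 neuronal genes runs along that of all 15000 genes with a ranked summit, and the 629 genes with a conservative summit lie to the right with a median of 114.

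The group named for synaptic vesicle release had the highest median percentile of the 6 role groups in the combined list, 72.1 over 12 genes. Of these, 10 had a ranked summit (background 75.1%) and 1, ehs-1, a conservative one (background 3.15%). The group also takes in ehs-1, a recycling gene at percentile 97.2, and rgef-1, a pan-neuronal marker at 81.4. Its rank among the groups without these 2 was not computed. In replicate 1 alone the median of all 12 was 61.0, and in replicate 2 alone it was 46.4, where the dense core vesicle group had 69.3 and the axon group 61.5. With the equal window of the most upstream start, an alternative added after seeing the data, it was 68.1, against 69.03 for the dense core vesicle group. Replicate values of a gene in the following are the highest signals in its window. The small vesicle GTPase rab-3 had a signal of 52.9 at its start, seen in replicate 1 at 34.2 and not listed in replicate 2. The active zone scaffold unc-10 (RIM) had 49.7 at 349 bp upstream, with window highs of 27.2 in replicate 1 and 30.4 in replicate 2. The fusion clamp cpx-1 (complexin) had 48.0 at 110 bp downstream, with 18.2 and 30.6 in replicates 1 and 2. For rgef-1, a Ras guanine nucleotide exchange factor used as a pan-neuronal marker, the signal was 46.7 at 224 bp upstream, with 24.9 in replicate 1 and 21.2 in replicate 2. The vesicle priming factor unc-13 followed at 42.7. Their IDR scores, apart from that of ehs-1, all lay far under the limit of 830. In the combined list the core of the fusion machinery was lower or not listed. The SNAREs ric-4 and snb-1 had 38.4 and 33.3, the vesicle protein sng-1 (synaptogyrin) had 30.6, and unc-18, which binds syntaxin, had 23.6. Syntaxin itself (unc-64) and the calcium sensor snt-1 (synaptotagmin) had no ranked summit in their windows. This order did not hold in each replicate. For ric-4 replicate 1 gave 16.5, below unc-10 and cpx-1, and replicate 2 gave 32.3, above both. For snb-1 replicate 1 gave 19.5, above cpx-1, and replicate 2 listed nothing.

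All 6 genes of dense core vesicles and neuropeptides had a ranked summit (background 75.1%) and none had a conservative one (background 3.15%). Their median percentile was 71.4 (58.0 in replicate 1, 69.3 in replicate 2). The highest was ida-1, a transmembrane protein of dense core vesicles, with 54.9 at 160 bp upstream. That peak was listed in replicate 2 at 33.5 and not in replicate 1, and its summit window, taken in the same way, matched 319 places in the genome, whereas the summit windows of the other 35 neuronal genes were single-copy. The vesicle maturation factor ric-19 had 44.6, with 33.3 in replicate 1 and 24.8 in replicate 2, in a window shared with pmlr-1. The release factor unc-31 (CAPS) had 41.9, the carboxypeptidase egl-21 had 38.2 and the proprotein convertase egl-3 had 33.3.

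The neuropeptide gene flp-11 (WBGene00001454) was read with particular care as the known target of APTF-1. Its strongest ranked peak, chrX:4678760-4679055, had a signal of 35.3 and an IDR score of 110, with the summit 779 bp upstream of the start. A weaker ranked summit lay 189 bp upstream, with a signal of 32.3 and an IDR score of 63. Replicate 2 listed the stronger site at 19.01, and replicate 1 listed no summit in the window. The signal put flp-11 at percentile 62.4, with 7501 genes above it, and equalled the median of genes with a ranked summit to 3 digits. The nearest conservative summit was 225916 bp away. Neither the AP-2 forms nor the E2F form described below occurred in its promoter window. In whole young adults of this strain no reproducible APTF-2 peak was thus listed at flp-11, and binding in RIS alone was not measured.

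The 3 genes of axon transport and outgrowth all had ranked summits (background 75.1%), with a median percentile of 48.7 (55.1 in replicate 1, 61.5 in replicate 2). Their windows were the longest of the role groups, with a median of 3544 bp. With the equal window of the most upstream start the median percentile was 13.8. That value is the shared rank of genes with no ranked summit in the equal window, here unc-104 and unc-33. The lipid-binding chaperone unc-119 had a signal of 41.7, with 16.8 and 28.5 in replicates 1 and 2. The microtubule-binding protein unc-33 (CRMP) had 28.6, with window highs of 18.4 and 18.1 in replicates 1 and 2. Neither replicate had a summit within 150 bp of the peak of 28.6, so these highs come from elsewhere in the window. The vesicle motor unc-104, a kinesin, had 24.0 at its promoter.

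Genes that make and load transmitters had a median percentile of 40.6 over 9 genes (55.1 in replicate 1, 22.5 in replicate 2, 29.8 with the equal window), and 6 of them had a ranked summit (background 75.1%). The value of 22.5 is the shared rank of genes with no summit in the list of replicate 2. The GABA synthesis enzyme unc-25 had 45.3, with 17.98 in replicate 1 and nothing listed in replicate 2. The serotonin synthesis enzyme tph-1 had 42.2, with 16.8 and 26.5 in replicates 1 and 2. The tyramine and octopamine enzymes tdc-1 and tbh-1 had 33.4 and 25.4, the GABA vesicular transporter unc-47 had 24.4, and the glutamate vesicular transporter eat-4 had 11.4, the lowest of all 36. No summit was listed for the cholinergic pair unc-17 and cha-1, which share their start region and so are not independent, nor for the dopamine synthesis enzyme cat-2.

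Terminal selectors and identity factors had a median percentile of 42.7 over 12 genes (48.6 in replicate 1, 35.1 in replicate 2, 41.7 with the equal window), with ranked summits at 9 (background 75.1%). The homeodomain factor unc-42 (WBGene00006778) stood highest at percentile 90.2. Its peak at chrV:9769261-9769556 had a signal of 56.8, an IDR score of 247 and a summit 18 bp upstream of the start, with 22.4 in replicate 1 and 29.1 in replicate 2. The LIM homeodomain factor lim-4 followed with 47.8 and an IDR score of 88, with 18.2 and 37.3 in replicates 1 and 2. Values then ran downwards over unc-3 (36.6), unc-30 (33.9), unc-4 (30.1), mec-3 (26.7), lim-6 (24.2), the ETS factor ast-1 (21.3) and the homeodomain factor cog-1 (13.2). The POU factor unc-86, the LIM homeodomain factor ttx-3 and the zinc finger factor che-1, selectors of touch, AIY and ASE neurons, had no ranked summit. In the authors' other ranked list from both replicates unc-86 did have one, at percentile 53.99, whereas cog-1 and the vesicle gene sng-1 had none there. Among the 4 proneural factors, cnd-1 (NeuroD) had 36.8, with 22.1 in replicate 1 and 15.4 in replicate 2. The factor ngn-1 (neurogenin) had 30.9, with 13.5 in replicate 1 and 21.9 in replicate 2, whereas hlh-14 (achaete-scute) and lin-32 (atonal) had no ranked summit. The proneural median percentile was 33.1 (35.0 in replicate 1, 38.6 in replicate 2, 35.8 with the equal window). No factor of either group had a conservative summit in its window, against a background of 3.15%, at which groups this small may well hold none.

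The replicates' own lists did not always hold the same genes, among neuronal genes as among all genes. Of the 46 genes, 28 had a ranked summit in replicate 1, 25 in replicate 2 and 21 in both. The same counts over all 19973 genes were 11398, 10999 and 7741, so incomplete overlap was not particular to the neuronal genes. In 4 genes there was a summit in the combined ranked list but in neither replicate's own list. They were sng-1, unc-18, ast-1 and eat-4, and the matching count over all genes was not made. The 10 genes with no summit in the combined list had none in the replicates' lists either, and of them unc-86 had one in the other combined list, where 35 neuronal genes had a summit. Over the 21 genes listed in both, the rank correlation of the highest signals was -0.07, against 0.39 over the 7741 genes. These are descriptions over genes that share 2 libraries. At the strongest ranked peak itself, both replicates had a summit within 150 bp at 11 of the 46 neuronal genes (23.9%), against a background of 26.9%. Counted only over genes with a ranked summit, the shares were 30.6% of the neuronal genes and 35.8% of all genes. For genes with a conservative summit it was 619 of 629 (98.4%). That list was selected for agreement between the replicates, so its share was largely fixed in advance and is no yardstick for the others.

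**Figure D3:**
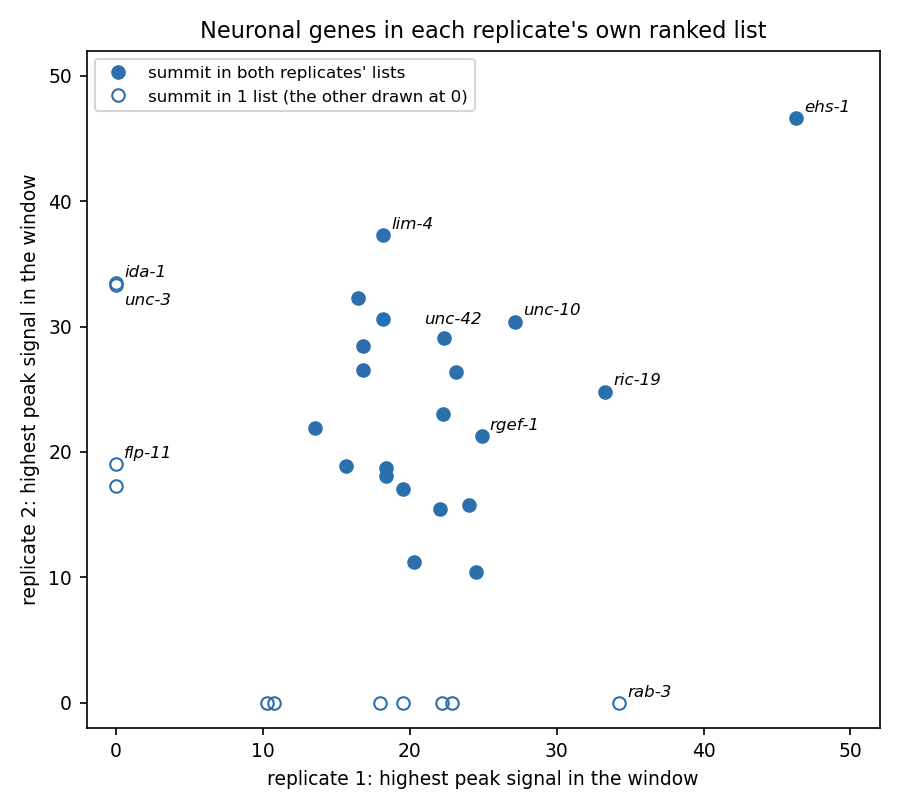
Highest signal in the promoter window in the ranked list of replicate 1 (x axis) and of replicate 2 (y axis), 1 point per neuronal gene. ehs-1 stands apart at 46.3 and 46.6, and open circles on the axes are genes listed in 1 replicate, such as rab-3, ida-1, unc-3 and flp-11.

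The strongest summits of the neuronal genes were spread over the window. They lay upstream of the nearest start at 23 of 36 genes, with a median of 152 bp upstream. By annotation 16 lay outside the gene, 9 in an intron, 7 in a coding exon and 4 in the 5′ untranslated region. Windows held at most 5 ranked summits, as at unc-42, unc-31, unc-119 and unc-30. Windows that shared their strongest summit with another protein-coding gene numbered 2, ric-19 with pmlr-1 and tdc-1 with K01C8.2.

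**Figure D4:**
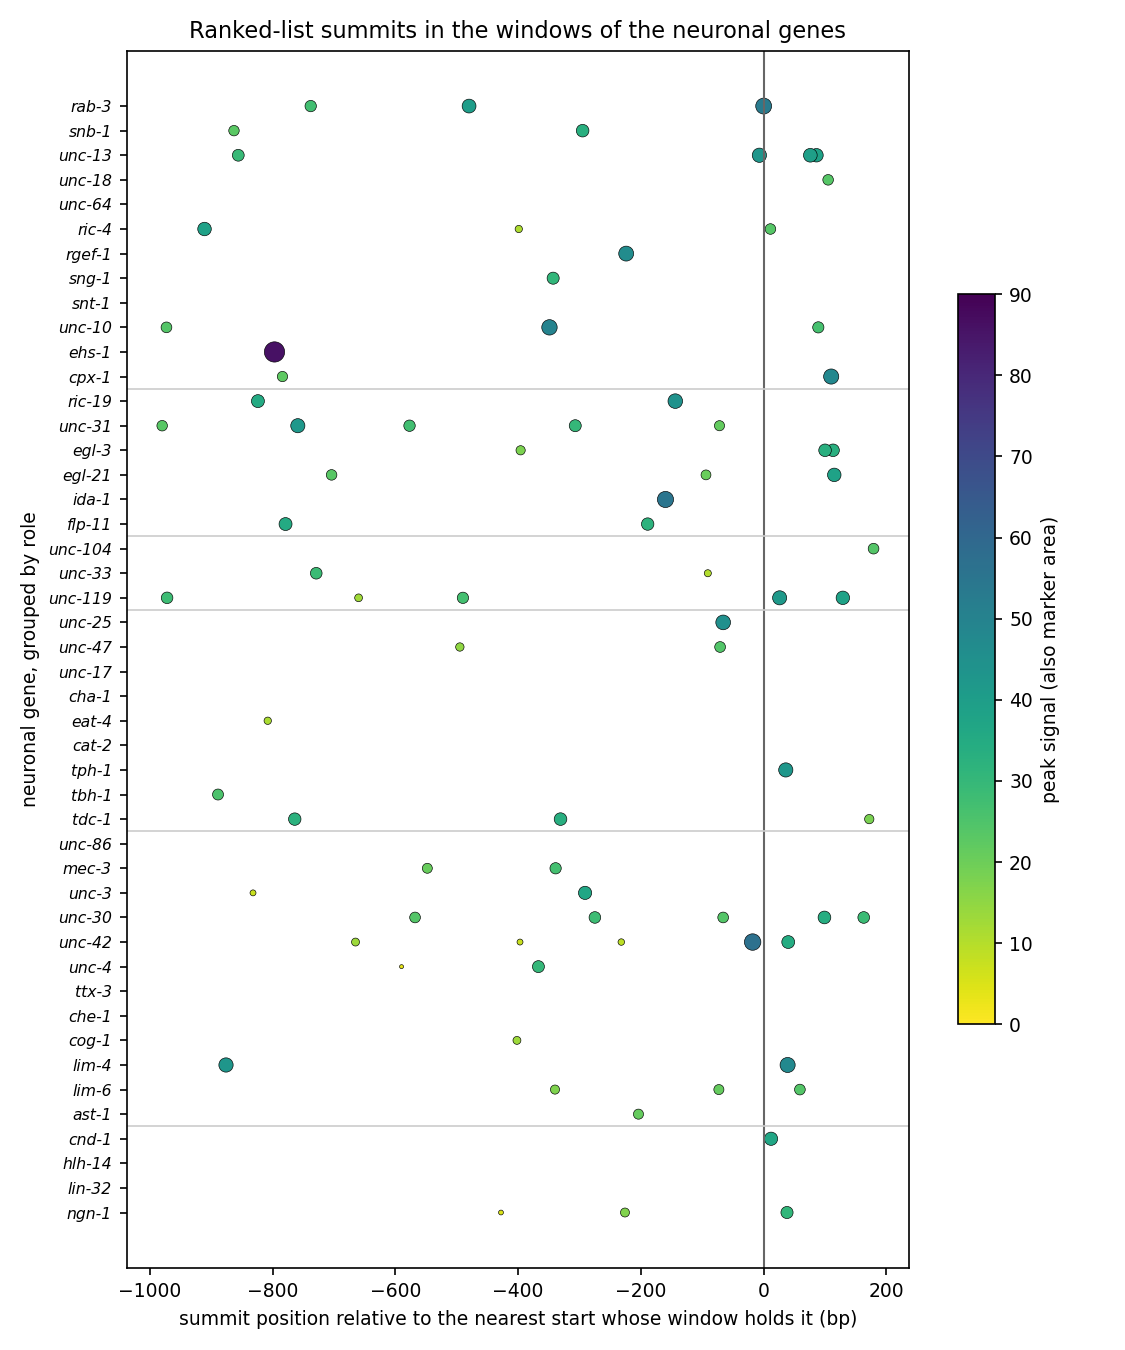
Positions of all 81 ranked summits in the promoter windows of the neuronal genes (x axis, bp from the nearest start; genes on the y axis by role group), with marker colour and area giving the signal. Summits scatter from upstream to downstream of the start, and ehs-1 has its single summit 797 bp upstream.

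Reproducible peaks did occur near neuronal genes outside the promoter windows. Within 5 kb of the 46 gene bodies lay 7 conservative summits, 1 of them that of ehs-1. Measured from the starts, 5 neuronal genes (10.9%) had a conservative summit within 5 kb, against 1964 of all genes (9.83%). The nearest conservative summit lay at a median of 33709 bp from the neuronal starts, against 46319 bp for all genes. Counted from 1000 bp upstream to the end of the gene, 3 neuronal genes had a conservative summit, among them ehs-1 and unc-104. That is 6.52%, against a background of 4.07%, and the neuronal genes were longer, as given above.

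The unc-104 peak (chrII:7001463-7001758) lay in the intron at chrII:6997154-7001720, 5679 bp from the nearest start. Its signal was 113, with 59.2 in replicate 1 and 46.3 in replicate 2, and replicate 1's thresholded list held it whereas replicate 2's did not. Its summit lay 16 bp from a tRNA pseudogene (WBGene00023260, chrII:7001627-7001698, plus strand), whose letters fill most of the right part of the printed stretch. The summit window of unc-104 matched 4 places in the genome, and its GC content was 51.7%, against 31.3% at ehs-1.

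The proneural gene lin-32, which had no ranked summit in its window, had a conservative summit 2844 bp downstream of its start and outside the gene (chrX:2227130-2227425, signal 110). This summit lay 16 bp from a tRNA gene (WBGene00023139, chrX:2227191-2227262, minus strand) and had 44.7 in replicate 1 and 64.6 in replicate 2. In all, 3 of the 7 peaks near neuronal genes (42.9%) overlapped a tRNA gene, a small nuclear RNA gene or a tRNA pseudogene. Of the 892 conservative peaks, 12.9% did. All of these kinds of gene occur at the 7 peaks themselves, and the class was not among the planned results. The share of 42.9% is therefore a description of these peaks and no measure of enrichment. A further 3 summits lay in windows of neighbouring genes. The peak 2063 bp upstream of egl-21, with a signal of 169 and listed in both replicates' thresholded lists, lay in the windows of ced-5 and F01D4.5. The peak 2457 bp upstream of cat-2, with 126, lay in the window of scc-2. The peak 6948 bp downstream of the nearest start of che-1, with 91.5, lay in the windows of glh-2 and C55B7.11.

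AP-2 site forms were searched on both strands in the 1201 bp window of the most upstream start of each gene. The palindrome GCCNNNGGC occurred in 5 of 46 neuronal windows (10.9%), those of lim-6, snb-1, tph-1, unc-42 and rgef-1, against 5.31% of all promoter windows. A looser form, CCNNNGG with a G or C on each side, includes the palindrome and occurred in 14 (30.4%), against 16.9%. The palindrome with a spacer of 4 bases in place of NNN occurred in 6 (13.0%), against 7.34%. The E2F form, TTT and a pair of bases each G or C followed by CGC, occurred in 16 (34.8%), against 16.5%. The windows of unc-17 and cha-1 are nearly the same DNA, and both genes are counted for the looser form, the longer spacer and the E2F form. Median GC content of these windows was 35.3% for neuronal genes and 35.0% for all genes. Few of the matches lay at the summits. Within 100 bp of the strongest ranked summit the palindrome occurred at 1 of 36 neuronal genes (2.78%), unc-42, against 1.44% over the ranked summits of all genes and 2.69% over conservative summits. There it lay at chrV:9769389-9769397 and started 20 bp before the summit, as the capitals above show. The looser form occurred at 4 of 36 (11.1%, against 5.0% and 11.7%), the longer spacer at 1 (2.78%, against 2.21% and 4.15%) and the E2F form at 2, rab-3 and tdc-1 (5.56%, against 4.6% and 12.2%). A match describes letters in a window and was not tested as a site.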

How the data were processed

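APTF-2 ChIP-seq peak lists of 2 biological replicates of 1 group were analysed. Per the deposited README text, the authors made ranked lists and IDR-thresholded lists on ce11, for each replicate and for both, using a further file whose content is not given. For aligner and peak caller, names and versions were not given in the sources used here. Deposited columns used were the signal value of each peak, the IDR score, the −log10 of the q value, the −log10 of the global IDR and the summit offset. Pooling replicates can raise a signal, so signals were ranked within 1 list.

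Genes came from Ensembl release 115 (WBcel235), with 29314 protein-coding starts, and peak ends lay within the reference lengths of all 6 chromosomes. In the list of replicate 2, 1 peak has its summit past its own end and was kept. Each gene took the highest signal of summits in its promoter window, and the 24.9% of genes with no ranked summit shared the lowest rank, percentile 12.4. Genome copies were BLAST 2.17.0 matches of at least 100 bp with at least 90% identity. Scripts used Python 3.11.15, NumPy 2.4.6, pandas 2.3.3, SciPy 1.17.1 and matplotlib 3.10.9, and were tested on simulated summits. With 1 group and 2 replicates, no test was run: members are described beside all protein-coding genes.

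The members and lists were chosen with earlier results of these data known. Genes named by rule were every member with a conservative summit, flp-11, the 8 members of highest and 4 of lowest signal, members with no ranked summit, the leading pair of each role group and, from further neuronal lists, genes with a conservative summit. The other members are given by their values alone. The detail of 1 site is not reported here. Alternatives covered the other lists, each replicate alone, other windows and hit rules, IDR limits, ranking measures and motif forms.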

Additional observations from a re-analysis of the deposited data

How the results depend on the processing

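The count of 1 neuronal gene with a conservative summit stayed at 1, ehs-1, with the other thresholded list, the wider window, peak overlap, the nearest start and the most upstream start. It was 0 with a window of 500 bp upstream and 100 bp downstream, 0 with the stronger 50% of peaks, and 0 to 0 in the replicates' own thresholded lists. Counting to the gene end, an alternative chosen after seeing the data, gave 3. The count at an IDR score of 830 was 0 with the narrower window and 0 to 0 without either replicate. The median percentile of 56.1 was 63.1 with the narrower window, 50.7 with 2000 bp upstream and 500 bp downstream, 52.4 by peak overlap, 51.9 without genes lacking a ranked summit, and 51.1 to 54.8 in the replicates. The other ranked list (53.8), the most upstream start (54.1), the IDR score (57.3) and the q value (55.8) moved it by less than the SD of the replicates, 2.56. The palindrome count of 5 was 14 with the looser form, 1 at the strongest summit and 1 with the longer spacer there. The cause was not tested in any of these. Of 450 recomputed percentiles of single genes, 264 moved by less than the spread between replicates, 95 moved up and 91 moved down. For genes listed in neither replicate this spread (SD 0.71) is only the gap between the shared ranks of unlisted genes, 21.5 and 22.5. Many of the moves were therefore shifts of a shared rank of genes with no summit, not changes of a signal. The recomputed percentiles ran between 22.6 and 98.8 for ehs-1 and between 21.5 and 72.8 for flp-11. Both lower ends are shared ranks of genes with no summit, for ehs-1 in the narrower window and for flp-11 in the list of replicate 1. No paired analysis was possible because there is 1 group. Depth is unknown, and a promoter bound in few cells may be missing from these lists.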

Other observations

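Further neuronal genes, 281 in 6 lists outside the 46, were counted by the same rules. Of these, 2 had a conservative summit in the promoter window (0.712%, Wilson 95% interval 0.195% to 2.56%), against 3.15% of all protein-coding genes. The interval covers only counting, and the lists were chosen with earlier results known, so it is no test of a lower share. The median percentile of the 281 genes by ranked signal was 49.2. The lists are rich in genes of chromosome X, 87 of the 281, against 2731 of all 19973. X held 35 of the 629 genes with a conservative summit. How far this placement bears on the share of 0.712% was not tested. The presynaptic gene was nsf-1, the ATPase that takes apart SNARE complexes, among 36 other presynaptic genes, with a signal of 111 at 534 bp upstream in a window shared with adr-1. The receptor gene was glr-6, a glutamate receptor subunit, among 64 transmitter receptors, with a signal of 123 at 359 bp upstream (chrX:6840931-6841226) in a window shared with asg-2. Each summit thus also lies in the window of a gene outside the neuronal lists.

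Neuropeptide precursor genes of the flp and nlp families held no conservative summit in 101 windows (Wilson 95% upper bound 3.66%, background 3.15%) and had a median percentile of 37.2. Of these 101 genes, 31 lay on chromosome X. Other transmitter genes (21), other neuronal transcription factors (32) and axon and touch receptor genes (27) held no conservative summit either, with median percentiles of 41.0, 37.5 and 56.7. Against a background of 3.15%, lists of these sizes may well hold none. Presynaptic genes outside the 46 had a median percentile of 65.9 (60.1 in replicate 1, 68.8 in replicate 2), and transmitter receptors 55.9. The symbol rab-27 matched no gene name in the annotation.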
